A study of Drosophila melanogaster with 36 samples.

Results

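Alpha-glucosidases cut glucose from the ends of sugars and short starch fragments. The fly genes examined here are tobi (target of brain insulin), the maltases Mal-A1 to Mal-A7 and the maltases Mal-B1 and Mal-B2. The 10 genes were picked by name for their known answer to diet and because earlier results of these data showed that some of them separate the genotypes. Each gene was measured by 1 probe set, matched by current symbol or older synonym, so the set covers 10 of 18769 probe sets and 10 of the 11982 genes that at least 1 probe set names alone. Of the 10 probe sets, 6 were bright enough to be tested (tobi, Mal-A1, Mal-A5, Mal-A6, Mal-B1 and Mal-B2). The other 4 (Mal-A2, Mal-A3, Mal-A4 and Mal-A7) fell under the brightness filter, which kept the upper 60% by mean log2 level over all arrays, and are given as values only.

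Maltases of the Mal-A and Mal-B groups are enzymes that split dietary maltose and sucrose, and the midgut is the site where a fly digests these sugars. Tobi belongs to another enzyme family, and its transcript is known to answer to insulin-producing cells of the brain, to the glucagon-like hormone Akh and to the protein and sugar of the diet. The fat body stores glycogen and fat and combines tasks that liver and adipose tissue share in mammals. In the gene table used for names, Mal-A1 to Mal-A7 stand next to each other on chromosome arm 2R with 0 protein-coding genes between them, followed by Mal-A8, which is not one of the 10 genes. Mal-B1 and Mal-B2 are neighbours on arm 2L, and tobi lies on arm 3R.

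Fat bodies were dissected from the abdomens of adult Drosophila melanogaster males, and those of 10 flies were pooled for each array. Before sampling the flies spent 5 days after eclosion at 25 °C, with the light on for 12 h and off for 12 h. The WT group carried w and 1 copy of UAS-dnClk, a transgene that needs a driver to be expressed, and gave 24 arrays, 1 every 2 h over 2 days. The dnClk group gave 12 arrays, 1 every 4 h over 2 days; whether these were the same days as in WT is not stated in the labels. Its label names only dnClk, a dominant-negative form of the clock transcription factor Clk, and the driver, the background and the cells that expressed it are not given in the sources used here. Times are given as ZT, hours after the first lights on, so that ZT 24 to ZT 46 is the second day. No time point was replicated, so the p-values measure the spread of arrays around a fitted curve, part of which may be technical; precision is limited by how many arrays there are. Values are MAS5 intensities (arbitrary brightness units) as deposited, and folds and differences are on the log2(intensity + 16) scale unless intensities are named. A level of 1 probe set is not compared with that of another, because probes differ in brightness for the same amount of RNA.

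The genotypes differed in measures of the arrays as well as in the tissue. The spiked hybridisation controls had a mean log2 level of 11.38 to 12.51 in WT and 9.69 to 10.45 in dnClk, and no array of either genotype came within the range of the other. How the arrays were processed and the genotype therefore cannot be told apart. Of the 10 fat body markers on the array, 9 were bright and Fbp1, a larval storage protein receptor, was near background in both genotypes (medians of 4.95 in WT and 8.40 in dnClk). The mean log2 level of the 10 fat body markers was 10.19 to 11.23 in WT and 8.90 to 9.17 in dnClk. Of 9 tested, 8 were lower in dnClk at a limma adjusted p under 0.05. In these pooled tissues, fewer cells of a type and less RNA per cell cannot be told apart. Markers of oenocytes, the pheromone- and wax-producing cells beside the fat body, also differed. Their mean log2 levels were 11.69 to 12.60 in WT and 10.71 to 11.46 in dnClk, with 5 of 5 tested lower. Haemocyte markers went the other way without overlap, at 6.83 to 7.64 in WT and 8.55 to 9.09 in dnClk, and 6 of 6 were higher in dnClk by limma adjusted p. Malpighian tubule markers were at 5.04 to 8.10 in WT and 6.64 to 7.81 in dnClk, with 2 of 4 tested higher, and accessory gland and ejaculatory tract markers at 5.57 to 7.22 and 6.37 to 7.42, with 7 of 9 tested higher. Testis markers spanned 4.95 to 9.64 over the WT arrays, with the highest level at ZT 36, and 6.61 to 8.90 in dnClk. By the same test, 1 of 16 testis markers was higher in dnClk and 0 lower. For midgut markers 2 of 8 tested were higher and 0 lower, and for muscle markers 2 of 10 were higher and 5 lower. These counts stand beside shares of 39.3% higher and 17.7% lower over everything tested. Genotype differences with some of these markers as covariates are given near the end. The part of these measures in the genotype differences of the 10 genes was not tested.

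Tobi was bright in WT and dim in dnClk at every shared time. In WT its intensity was 539.7 at the lowest array (ZT 4), 1078 at the median and 4682 at the highest (ZT 44). In dnClk it was 37.3 at the lowest (ZT 12), 72.8 at the median and 330.9 at the highest (ZT 36). The highest dnClk array thus lay below the lowest WT array. The log2 mean was 10.37 ± 0.98 (SD, n = 24) in WT and 6.78 ± 0.91 (SD, n = 12) in dnClk, a difference of -3.58 (SE 0.34), or 12.0-fold lower in dnClk. WT was the brighter genotype at 12 of 12 shared times. The ratio of intensities, WT over dnClk, was 1.65 at ZT 36, 20.6 at the median and 93.1 at ZT 44. The nearest approach of the courses, at ZT 36, joined the highest dnClk array with a WT array of 547.2.

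Mal-B1 separated the genotypes by a similar amount. Its WT intensity was 472.4 at the lowest array (ZT 0), 1547 at the median and 3028 at the highest (ZT 32). In dnClk it ran from 55.5 (ZT 16) through a median of 89.3 to 179 (ZT 28). No arrays of the genotypes overlapped. The log2 mean was 10.46 ± 0.74 (SD, n = 24) in WT and 6.85 ± 0.48 (SD, n = 12) in dnClk, a difference of -3.62 (SE 0.18), or 12.3-fold lower. The intensity ratio, WT over dnClk, was 3.61 at ZT 0, 20.1 at the median and 30.7 at ZT 12.

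Mal-B2, the neighbour of Mal-B1, was the third gene whose genotypes stood apart. WT intensities were 1606 at the lowest (ZT 24), 2876 at the median and 5215 at the highest (ZT 38). The dnClk intensities were 303.5 (ZT 44), 460.7 and 589 (ZT 28). The log2 mean was 11.49 ± 0.46 (SD, n = 24) in WT and 8.84 ± 0.27 (SD, n = 12) in dnClk, a difference of -2.65 (SE 0.14), or 6.28-fold lower. The intensity ratio, WT over dnClk, was 3.47 at ZT 28, 6.77 at the median and 13.02 at ZT 44. Of the 3 genes, Mal-B2 had the narrowest spread within each genotype, with a highest-over-lowest ratio of 3.25 in WT and 1.94 in dnClk, against 8.68 and 8.87 for tobi.

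**Figure D1:**
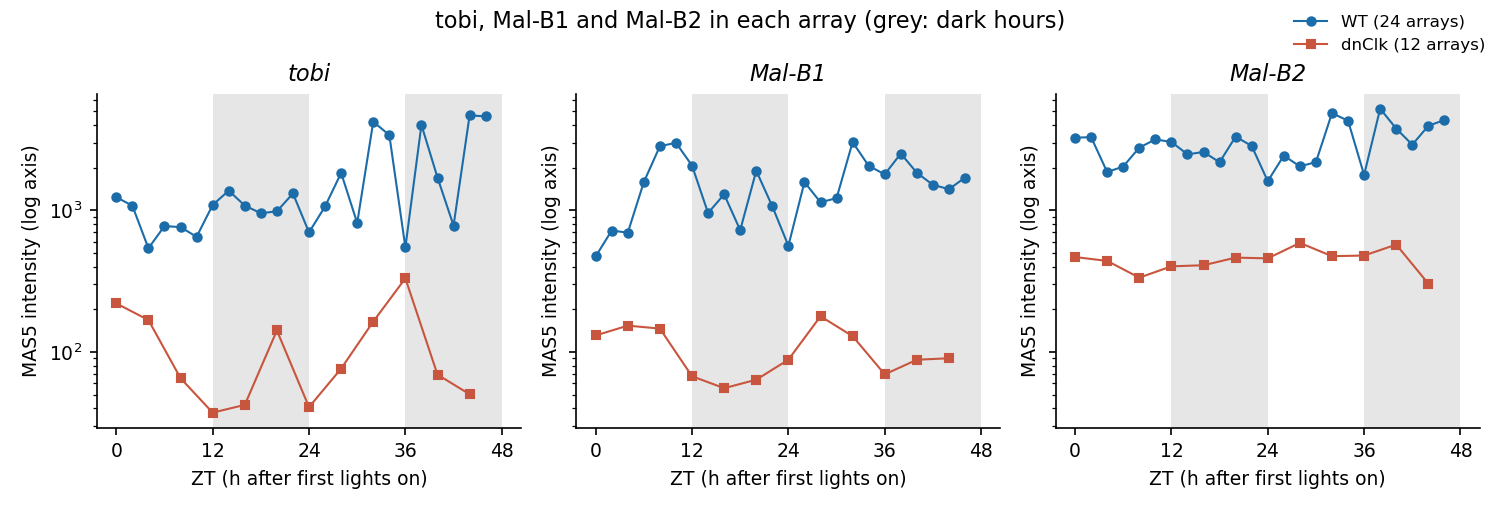
MAS5 intensity (log axis) of tobi, Mal-B1 and Mal-B2 against ZT in hours, with 1 point for each of 24 WT and 12 dnClk arrays and dark hours in grey. In each panel every WT point lies above every dnClk point, and the tobi courses come closest at ZT 36 (547.2 in WT, 330.9 in dnClk).

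These 3 of 6 tested genes were lower in dnClk with no overlap of arrays, and 0 were higher with no overlap. Over all tested probe sets, 4.4% were lower and 6.3% higher with no overlap. Since the genes were chosen with these differences known, nothing is read from their count. The median difference was -1.42 over the 6 genes, which leave out the 4 dim maltases, and 0.25 over all tested probe sets. Those 4 were dim and had higher median intensities in dnClk, and nothing is read from the median of the 6 either. With the level of each array taken as deposited, 17.7% of all tested probe sets were lower and 39.3% higher in dnClk at a limma adjusted p under 0.05.

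The size of these differences depended on how arrays were scaled. Scaling to the hybridisation controls moved the median difference of all tested probe sets from 0.25 to 2.36, and values relative to the fat body markers moved it to 1.93. Tobi differed by -1.48 on the first of these scales and by -1.91 on the second, Mal-B1 by -1.51 and -1.94, and Mal-B2 by -0.54 and -0.97. All 3 thus remained lower in dnClk on both. Relative to the fat body markers, arrays of the genotypes overlapped for tobi and Mal-B1 and did not overlap for Mal-B2. On that scale tobi lay between -1.42 and 1.08 in WT and between -3.30 and -0.63 in dnClk. Mal-B2 lay between 0.27 and 1.30 in WT and between -0.65 and 0.26 in dnClk.

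**Figure D2:**
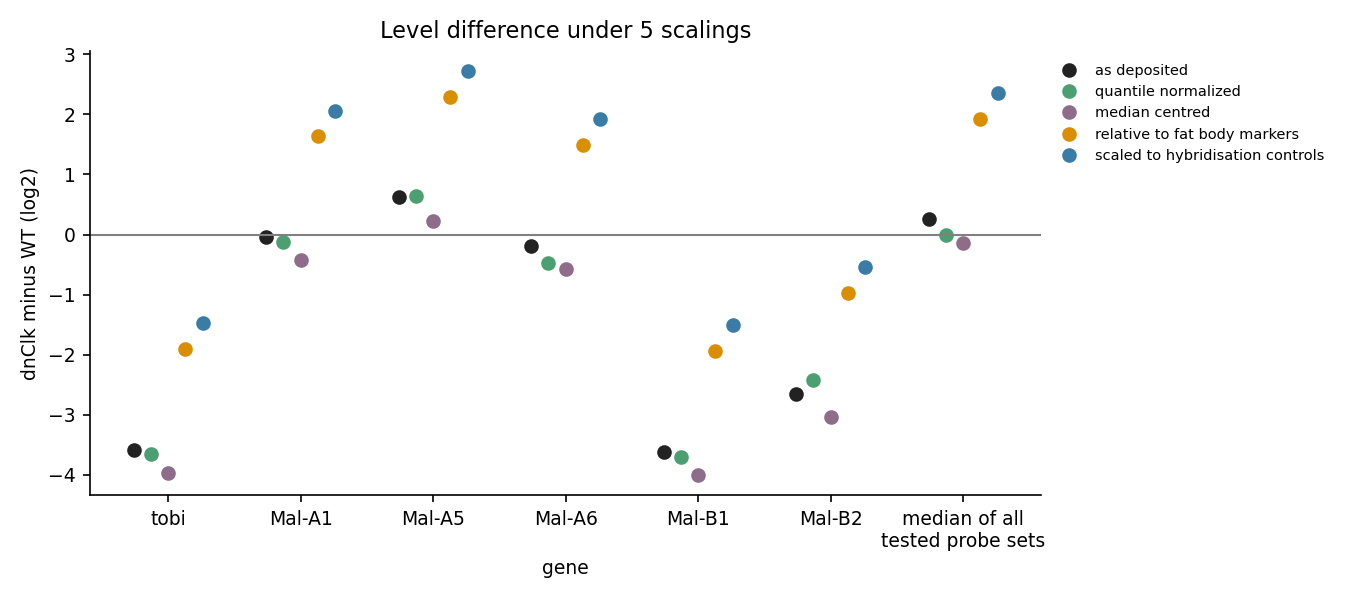
Difference in mean log2 level, dnClk minus WT, for the 6 tested genes and for the median of all 11261 tested probe sets, with 1 colour for each of 5 scalings. Tobi, Mal-B1 and Mal-B2 stay below 0 under all 5, Mal-A5 stays above 0, and Mal-A1 and Mal-A6 pass from below to above 0.

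Mal-A5 went the other way. Its WT intensity was 196.1 at the lowest (ZT 24), 388.2 at the median and 520.3 at the highest (ZT 12), and its dnClk intensity was 410.1 (ZT 44), 557.4 and 700.8 (ZT 20). The ranges overlapped, with 9 WT arrays inside the dnClk range and 3 dnClk arrays inside the WT range. The dnClk array was the brighter at 12 of 12 shared times. The log2 mean was 8.59 ± 0.33 (SD, n = 24) in WT and 9.21 ± 0.22 (SD, n = 12) in dnClk, a difference of 0.62 (SE 0.10), or 1.54-fold higher, of which 0.36 exceeded the median of all tested probe sets. The difference was 0.23 with arrays centred on their median, 2.72 with scaling to the hybridisation controls and 2.30 relative to the fat body markers. Mal-A5 was also the steadiest of the tested genes, with a highest-over-lowest ratio of 2.65 in WT and 1.71 in dnClk.

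Mal-A1 and Mal-A6 varied widely from array to array and overlapped between genotypes. Mal-A1, formerly LvpH, had a WT intensity of 69.4 at the lowest (ZT 14), 402.6 at the median and 1313 at the highest (ZT 8), and a dnClk intensity of 33.4 (ZT 12), 369.2 and 1006 (ZT 36). The highest array was 18.9 times the lowest in WT and 30.1 times in dnClk. Mal-A6 had a WT intensity of 24.6 (ZT 12), 131.9 and 794.2 (ZT 8), and a dnClk intensity of 20.8 (ZT 12), 84.8 and 449.7 (ZT 36), which is a spread of 32.3 times in WT and 21.6 times in dnClk. Both genes were thus lowest at ZT 12 in dnClk and highest on the same array in each genotype. The difference in log2 mean was -0.04 (SE 0.44) for Mal-A1 and -0.19 (SE 0.40) for Mal-A6, both smaller than their SE, and these turned to 2.06 and 1.92 with scaling to the hybridisation controls and to 1.64 and 1.49 relative to the fat body markers. WT was the brighter at 7 of 12 shared times for Mal-A1 and at 8 of 12 for Mal-A6.

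**Figure D3:**
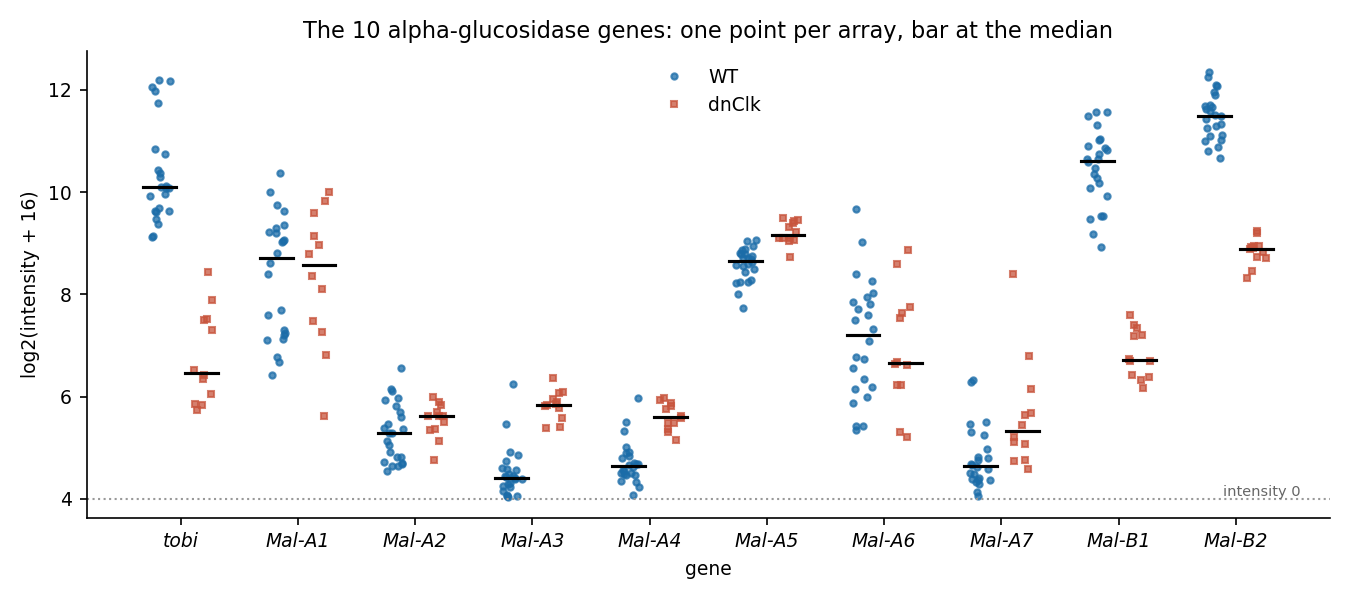
Levels of the 10 genes as log2(intensity + 16), with 1 point per array (24 WT, 12 dnClk) and a bar at the median; the dotted line is intensity 0. Tobi, Mal-B1 and Mal-B2 separate the genotypes, and Mal-A1 and Mal-A6 spread over the same range in both. Mal-A2, Mal-A3, Mal-A4 and Mal-A7 are dim, except for Mal-A7 on a few dnClk arrays (321.3 intensity units at the highest).

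The swings of Mal-A1 and Mal-A6 went together, and with digestive enzyme transcripts of the midgut. Over the 24 WT arrays Mal-A1 and Mal-A6 correlated with r = 0.94 (rho 0.92), and over the 12 dnClk arrays with r = 0.92 (rho 0.94). Leaving out the 2 arrays with the most extreme Mal-A6 level gave r = 0.93 in both. These and the following correlations describe arrays that share dissection, scaling and hybridisation, and carry no test. Of the 25 midgut enterocyte markers listed, 20 were on the array, among them Jonah and trypsin proteases. Their WT medians were under 31.34 intensity units, the dimmest mean among tested probe sets, for 12 of the 20, and zetaTry was at a WT median of 1.45. The summed intensity of the 20 markers was 397.4 (ZT 44) at the lowest, 1870 at the median and 7769 (ZT 8) at the highest in WT, and 877.1 (ZT 16), 1667 and 4017 (ZT 36) in dnClk. Their highest arrays, ZT 8 in WT and ZT 36 in dnClk, were also the highest arrays of Mal-A1 and Mal-A6.

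Against the mean log2 level of the 20 markers, Mal-A1 had r = 0.68 (rho 0.63) in WT and 0.92 (rho 0.94) in dnClk. Mal-A6 had r = 0.70 (rho 0.68) in WT and 0.80 (rho 0.82) in dnClk. Without the 2 arrays farthest from the median of the marker mean, r was 0.64 and 0.88 for Mal-A1 and 0.68 and 0.64 for Mal-A6. Midgut transcripts, from gut left in the dissection or from fat body itself, therefore moved with both genes, and their part in the levels was not tested.

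Tobi stood in different relations to these genes in the 2 genotypes. In WT it had r = -0.13 with Mal-A6 and r = -0.61 (rho -0.68) with the midgut marker mean. In dnClk it had r = 0.96 (rho 0.97) with Mal-A6, 0.92 without the 2 most extreme Mal-A6 arrays, and r = 0.67 (rho 0.69) with the midgut marker mean, which was 0.45 without the 2 most extreme marker arrays. The highest dnClk array of tobi, ZT 36, was that of Mal-A1, Mal-A6 and the midgut markers, and the lowest dnClk array of all of these but the summed markers was ZT 12. In WT, by contrast, the highest array of tobi was ZT 44, where the midgut markers were lowest. The difference between these correlations was not tested.

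**Figure D4:**
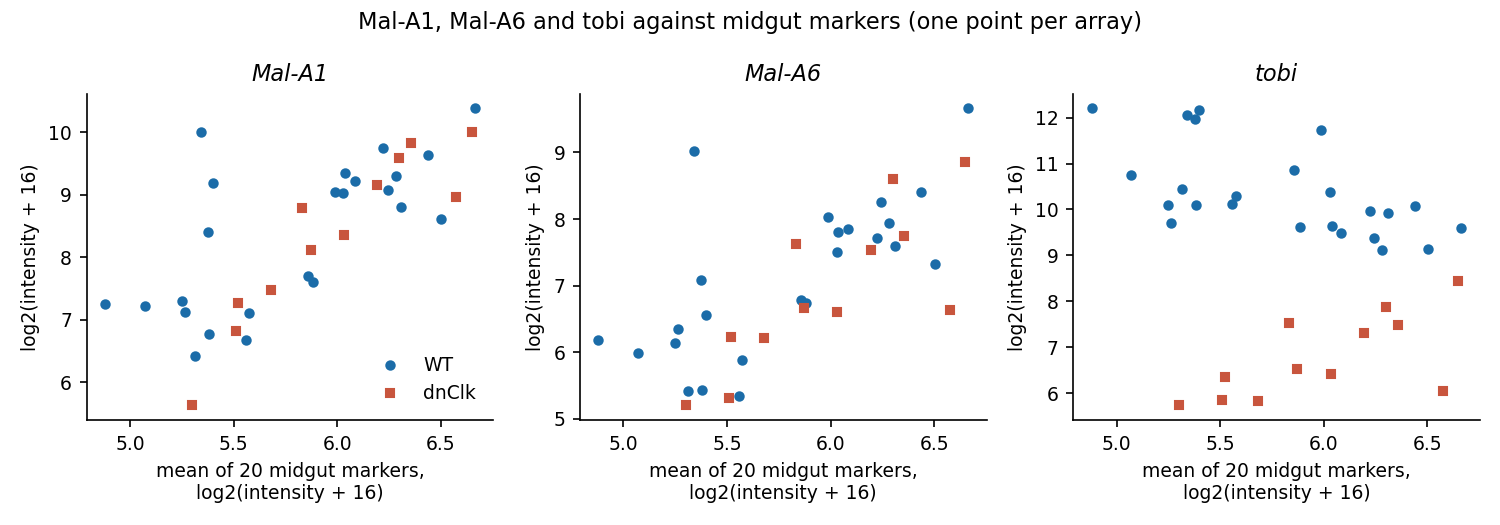
Levels of Mal-A1, Mal-A6 and tobi, as log2(intensity + 16), against the mean log2 level of 20 midgut markers, with 1 point per array (24 WT, 12 dnClk). Mal-A1 and Mal-A6 climb with the markers in both genotypes (r = 0.68 and 0.70 in WT, 0.92 and 0.80 in dnClk), and tobi is higher with the markers in dnClk (r = 0.67) and lower with them in WT (r = -0.61).

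In WT, tobi and Mal-B2 went with the fat body markers instead. Tobi had r = 0.83 (rho 0.76) and Mal-B2 r = 0.88 (rho 0.85) with the mean of the fat body markers, and r = 0.79 (rho 0.71) with each other. Mal-B1 had r = 0.54 (rho 0.52) with the fat body markers and r = 0.29 with tobi. Mal-A5 had r = 0.62 (rho 0.55) with the fat body markers, and a similar r with the muscle (0.66) and oenocyte markers (0.61). With the testis markers tobi had r = -0.69, Mal-B2 r = -0.79, Mal-A5 r = -0.74 and Mal-B1 r = -0.48. In dnClk these were 0.49, 0.00, 0.08 and 0.20. In dnClk, where the fat body marker mean covered only 8.90 to 9.17, r with it was 0.23 for tobi, 0.27 for Mal-B2, 0.56 for Mal-A5 and -0.54 for Mal-B1. Leaving out the 2 arrays farthest from its median moved these to 0.52, 0.46, 0.29 and -0.18, so they rest on few arrays. The proportion of testis and of fat body transcripts thus moved with tobi, Mal-B2 and Mal-A5 across WT arrays, and its part in their spread was not tested.

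The 4 maltases under the brightness filter were mostly at or near the array background in WT. In dnClk they were dim, with medians under the array medians given below, and Mal-A7 was brighter on a few arrays. At or below 31.34 units, the dimmest mean among tested probe sets, were 2 of 12 dnClk arrays for Mal-A3 and 23 of 24 WT arrays. Mal-A2, formerly LvpD, had an intensity of 7.30 to 77.7 in WT (median 23.1) and 11.2 to 48.1 in dnClk (median 33.4). Mal-A3, formerly LvpL, had 0.50 to 59.5 in WT (median 5.35) and 25.9 to 66.6 in dnClk (median 41.5). For Mal-A4 the values were 0.90 to 46.9 (median 9.05) and 19.7 to 47.0 (median 32.7). For Mal-A7 they were 0.60 to 63.7 (median 8.90) and 8.10 to 321.3 (median 24.5), with the highest dnClk value at ZT 32. Mal-A3 was below 16 intensity units on 22 of 24 WT arrays and 0 of 12 dnClk arrays. The dim end of the arrays differed in the same direction, with a 25th percentile over all probe sets of 5.80 to 23 in WT and 12.7 to 23.1 in dnClk and an array median of 20.4 to 61.3 against 49.3 to 66.3. No fold is given for these 4 genes.

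Whether any of the 6 tested genes followed a 24 h cycle was asked within each genotype, a question the choice of genes did not rest on. None of the 6 passed in WT (background 0.648% of tested probe sets, limma adjusted p under 0.05), none in dnClk (background 0.0355%) and none for a difference in rhythm (background 0%). At an unadjusted p under 0.05, Mal-B1 alone passed in each of the 3 tests, against 968, 194 and 179 of all tested probe sets. The median amplitude (fitted mean to peak, log2) over the 6 genes was 0.27 in WT and 0.39 in dnClk, and over all tested probe sets 0.13 and 0.12. A fitted amplitude is never negative and grows with the spread of the arrays. The SE was 0.27 for tobi, 0.34 for Mal-A1 and 0.32 for Mal-A6 in WT, and 0.35, 0.51 and 0.45 in dnClk. Nothing is therefore read from the larger median of the 6.

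Mal-B1 in WT was low at lights on and high in the late light hours. Its mean intensity over the 2 days was 517 at ZT 0, 917 at ZT 4, 2932 at ZT 8, 2527 at ZT 10, 1932 at ZT 12 and 1118 at ZT 18. The fitted amplitude was 0.66 ± 0.17 (SE), a peak 2.49 times the trough, at ZT 11.4 ± 0.97 h (SE), with limma p = 0.0025 and adjusted p = 0.16. In dnClk, at far lower intensities, the 2-day mean was 166 at ZT 4, 137.8 at ZT 8 and 68.5 at ZT 12. The dnClk amplitude was 0.58 ± 0.10 (SE), or 2.22 times, with a peak at ZT 4.36 ± 0.67 h (SE), limma p = 0.00045 and adjusted p = 0.39. The fitted peak was 7.04 ± 1.17 h (SE) earlier in dnClk, and the limma test of a difference in rhythm gave p = 0.0020 and adjusted p = 0.98. With only the 12 times that both courses hold, the WT curve peaked at ZT 11.9 ± 0.97 h with an amplitude of 0.89 ± 0.23 (SE; limma adjusted p = 0.58). Neither the rhythms of Mal-B1 nor their difference therefore passed the adjustment over all probe sets.

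**Figure D5:**
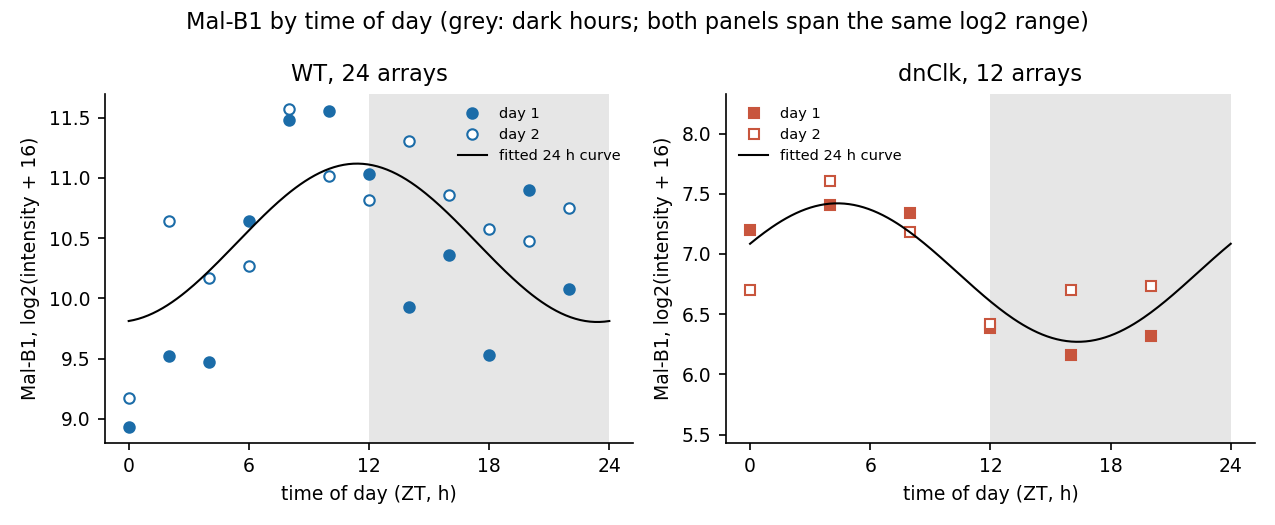
Mal-B1 level, as log2(intensity + 16), against time of day in hours for WT (24 arrays) and dnClk (12 arrays), with day 1 filled, day 2 open and the fitted 24 h curve as a line; the panels span equal log2 ranges at different heights. The WT curve peaks at ZT 11.4 and the dnClk curve at ZT 4.36.

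The other 5 genes had wider errors or smaller amplitudes. Tobi had a fitted amplitude of 0.27 ± 0.27 (SE; limma adjusted p = 0.92) in WT and 0.33 ± 0.35 (SE; limma adjusted p = 0.91) in dnClk, so no 24 h curve passed for it in either genotype. Mal-A5 had 0.22 ± 0.09 (SE; limma adjusted p = 0.61) in WT, with a fitted peak at ZT 14.4, and 0.040 (adjusted p = 0.98) in dnClk. Mal-B2 had 0.20 (limma adjusted p = 0.75) and 0.049 (adjusted p = 0.98). Mal-A1 had 0.26 and 0.48 and Mal-A6 0.49 and 0.46, with limma adjusted p between 0.75 and 0.95.

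The 2 collection days held the same clock times, and the second was compared with the first beside the 24 h curve. None of the 6 genes passed in WT (background 2.35%), none in dnClk (background 1.45%), and none for a difference of the day effect between genotypes (background 2.57%). At an unadjusted p under 0.05, the counts over all probe sets were 2344, 2052 and 2632, and tobi in WT was the only member of the family among them. Tobi in WT had a median intensity of 1030 on day 1 and 1770 on day 2, with a fitted difference of 0.89 ± 0.35 (SE), or 1.86-fold (limma p = 0.018, adjusted p = 0.16). It passed in 2 alternatives. Without the WT array at ZT 36, which had the highest testis marker level, the difference was 1.07 (limma adjusted p = 0.044). With testis and accessory gland markers as covariates it was 0.75 (limma adjusted p = 0.015). Over all tested probe sets, 1028 and 2812 passed in these 2 alternatives, against 265 in the main fit. In dnClk the day difference of tobi was 0.02 ± 0.52 (SE; limma adjusted p = 0.99), and -0.87 (limma adjusted p = 0.15) with the midgut marker mean as a covariate. The genotype by day term was -0.88 ± 0.64 (SE; limma adjusted p = 0.39). The median day difference over the 6 genes was 0.33 in WT and 0.13 in dnClk, and over all tested probe sets -0.11 and 0.05.

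The day 2 values of tobi in WT came from a few bright arrays. The 5 arrays at ZT 32, 34, 38, 44 and 46 had intensities of 4218, 3398, 4007, 4682 and 4600, and the brightest of the other 19 WT arrays had 1836. They were separated by arrays as low as 547.2 at ZT 36 and 779.9 at ZT 42. On these 5 arrays Mal-B2 was 3951 to 5215, above its 1606 to 3772 on the other 19. The fat body marker mean was 11.01 to 11.23 on the 5 and 10.19 to 11.03 on the others, and the testis marker mean was 4.95 to 6.39 against 5.14 to 9.64. The array median was 20.4 to 29.5 on the 5 against 27.0 to 61.3. The WT array at ZT 40 lay within both marker ranges of the 5 (11.03 for fat body, 5.14 for testis), with tobi at 1704. Tissue makeup and a lower array median thus went with the bright tobi arrays, though not on every array, and their part in them was not tested.

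Genes whose course was most like that of each tested gene were ranked by Pearson r over the 24 WT arrays among 8471 other tested genes. Tobi was most like CG16965 (r = 0.944), Aldh7A1, an aldehyde dehydrogenase (0.941), and the cytochrome P450 Cyp309a2 (0.935), with r = 0.237, 0.434 and 0.037 in the 12 dnClk arrays. Mal-B2 was most like ND-ASHI, a subunit of respiratory complex I (0.955), the cytochrome P450 Cyp6g1 (0.953) and the glycerol kinase Gk1 (0.941), with 0.149, 0.770 and 0.369 in dnClk. Mal-A5 was most like conu (0.932), PAN2 (0.929) and REPTOR-BP (0.925), with -0.125, -0.019 and 0.536 in dnClk. Mal-B1 had no close match, its highest being GILT3 (0.742), Cog7 (0.738) and Jhbp7 (0.718), with 0.097, -0.018 and -0.044 in dnClk.

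For Mal-A1 and Mal-A6, the genes most alike in WT had r of at least 0.841 in dnClk as well. Apart from each other, Mal-A1 was most like CG4377 (r = 0.927 in WT, 0.950 in dnClk) and CG4363 (0.918 and 0.899). Mal-A6 was most like the Jonah protease Jon99Ci (0.922 and 0.947) and Mal-A8 (0.919 and 0.841), the maltase at the end of the cluster. These r are the highest of many and are a description, over arrays that share scaling and tissue makeup.

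Of the other glucosidases and enzymes of sugar breakdown listed, 7 were tested. As deposited, 3 were higher in dnClk, 3 lower and 1 did not pass (limma adjusted p under 0.05), with a median difference of 0.01. Over all tested probe sets, 39.3% were higher and 17.7% lower. In this list and those below, level p-values compare arrays that also differed in hybridisation controls. They cannot tell genotype and processing apart. GCS2alpha, the catalytic subunit of the glucosidase that trims glycoproteins, was higher by 0.59 (limma adjusted p = 2.2e-08). Treh, which splits the blood sugar trehalose, was higher by 0.44 (limma adjusted p = 7.2e-08). The glycogen branching enzyme AGBE differed by -1.45 (limma adjusted p = 6.6e-08) and the glycogen phosphorylase Glyp by -1.19 (limma adjusted p = 8.1e-08). Scaled to the hybridisation controls, all 7 were above 0, AGBE at 0.65 and Glyp at 0.91. On that scale 11117 of 11261 tested probe sets passed as higher in dnClk, and the median of all was 2.36. AGBE and Glyp were below the median of all tested probe sets on both scales. None of the 7 passed the WT rhythm test, against 0.648% of all tested probe sets.

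Of 10 tested sugar transporters, 4 were higher, 5 lower and 1 did not pass, with a median difference of 0.01, against 39.3% higher and 17.7% lower over all tested probe sets. With control scaling, and relative to the fat body markers, 9 of 10 were above 0, against 5 as deposited. The median of all tested probe sets was 2.36 and 1.93 on these scales, against 0.25 as deposited. Among those lower were nebu (-2.14, limma adjusted p = 1.2e-18), the trehalose transporter Tret1-1 (-1.42, limma adjusted p = 6.5e-15) and the predicted transporter CG1213 (-1.17, limma adjusted p = 7.1e-09). Tret1-2 was higher by 1.09 (limma adjusted p = 1.3e-08). On the control-scaled values nebu stood at -0.03, and Tret1-1 and CG1213 turned to 0.69 and 0.94, each below the median of all tested probe sets. Pippin, formerly CG4797, was the 1 transporter of 10 that passed the WT rhythm test (amplitude 0.86, limma adjusted p = 0.011), against 0.648% of all tested probe sets.

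Of 19 tested regulators of the insulin, Akh and sugar-sensing pathways, 4 were higher, 8 lower and 7 did not pass, with a median difference of -0.06. The shares over all tested probe sets were 39.3% higher and 17.7% lower. The split depended on the scaling. Above 0 were 9 of 19 as deposited, 5 after quantile normalization, 3 with median centring and 18 with control scaling or relative to the fat body markers. The median of all tested probe sets moved as well, from 0.25 as deposited to -0.14 with median centring and 2.36 with control scaling. The receptor of the glucagon-like hormone, AkhR, differed by -2.26 (limma adjusted p = 1.7e-16). The kinase Sik3, which acts on fat and sugar stores, differed by -0.88 (limma adjusted p = 3.1e-10) and foxo, the transcription factor held back by insulin signalling, by -0.82 (limma adjusted p = 4.4e-08). Babo, a receptor of the activin branch of TGF-beta signalling, was higher by 0.66 (limma adjusted p = 7.4e-06). On the control-scaled values AkhR stood at -0.15 while Sik3 and foxo turned to 1.22 and 1.29, each below the median of all tested probe sets. The insulin receptor InR (-0.09, limma adjusted p = 0.60) did not pass. None of the 19 passed the WT rhythm test, against 0.648% of all tested probe sets.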

How the data were processed

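The authors deposited 1 table of probe set intensity values on a linear scale for 36 arrays, summarised with MAS5 (version not stated) per the submitters' processing notes; each array has a trimmed mean of 150 (2% off each end), and this scaling was kept. No genome build, array scan or driver of dnClk is given in the sources used here. All 36 columns were matched to samples by name, and no pair of arrays was identical. Control probe sets (183) were set aside.

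Values were analysed as log2(intensity + 16). Probe sets in the upper 60% by mean log2 level, 11261 of 18769, were tested. GEO's platform annotation gave 13647 probe sets 1 symbol, 402 several and 4720 none, and 13544 symbols were found in a RefSeq gene table. A gene was represented by its brightest probe set (8472 tested genes). Rhythms (24 h cosine and sine, moderated F), day terms and genotype terms were fitted with limma 3.58.1 in R 4.3.3. P-values were Benjamini-Hochberg adjusted over all tested probe sets, with a threshold of 0.05. The scripts were tested on simulated data.

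The genes, the lists and the cell type markers were chosen with earlier results of these data known. The genotype difference of the 10 genes is therefore given without a p. The level p-values of lists and markers are descriptions, since the arrays of the genotypes also differed in hybridisation controls. Named were all 10 genes, up to 4 genes of each pathway list with the smallest adjusted p in each test (level, or WT rhythm for pippin; InR was added after its value was seen), and for each tested gene the 3 most correlated genes in WT. Alternatives were pseudocounts of 1 and 64, no filter, quantile normalization, median centring, testis and accessory gland covariates, 12 h terms, shared times, time as a block and leaving out each array. Added after the data were seen were scaling to 9 hybridisation control probe sets, a midgut covariate and values relative to fat body markers. Promoter and protein sequences were not analysed here.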

Additional observations from a re-analysis of the deposited data

How the results depend on the processing

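The counts of the 6 genes that passed each rhythm test, the dnClk day test and the day by genotype test stayed at 0 under every alternative run, and 3 genes stayed more than 2-fold lower in dnClk, except for 2 under scaling to the hybridisation controls and relative to the fat body markers. The WT day test, at 0 as reported, gave 2 genes with testis and accessory gland covariates (tobi and Mal-A5). It gave 1 without the WT array at ZT 36 (tobi), 0 when any other WT array was left out, and 1 relative to the fat body markers (Mal-A5). Calls over all 11261 tested probe sets rose as well, from 265 as reported to 2812 with the covariates. They were 1028 without the array at ZT 36 and 3295 relative to the fat body markers. The added calls were thus not particular to the 6 genes. Mal-A5 then differed between days by -0.25 (limma adjusted p = 0.031) with the covariates and by -0.42 (limma adjusted p = 9e-04) relative to fat body markers, against -0.17 (limma adjusted p = 0.44) as reported; the adjusted p of tobi reached 0.80 at the 12 shared times. The cause was not tested. Leaving out each array moved the genotype difference of tobi between -3.77 and -3.47, of Mal-B1 between -3.67 and -3.57, of Mal-B2 between -2.70 and -2.60 and of Mal-A5 between 0.58 and 0.67. Mal-A1 and Mal-A6 turned to 2.06 and 1.92 with control scaling and to 1.64 and 1.49 relative to the fat body markers. The numbers of the arrays pair no samples; with each shared time as a replicate block, 3 genes remained more than 2-fold lower, with 494 probe sets in all against 525. Over all probe sets, the number called ranged from 10 to 196 for the WT rhythm (73 as reported), 0 to 5 for the dnClk rhythm (4), 0 to 3295 for the WT day (265), 35 to 190 for the dnClk day (163) and 14 to 2069 for the day by genotype term (289). The 4428 higher and 1991 lower probe sets in dnClk became 2280 and 2940 after quantile normalization, 1291 and 3822 after median centring and 11117 and 49 with control scaling. Array number and the dim signal of Mal-A2, Mal-A3, Mal-A4 and Mal-A7 limit what can be detected.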

Other observations

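Mal-A8, the last maltase of the cluster on arm 2R, was not among the genes chosen. Its intensity was 7.20 at the lowest (ZT 44), 35.7 at the median and 159.9 at the highest (ZT 8) in WT, and 9.30 (ZT 12), 36.7 and 170.0 (ZT 32) in dnClk. It followed Mal-A1 with r = 0.90 in WT and 0.90 in dnClk, and its highest WT array, ZT 8, was that of Mal-A1 and Mal-A6. The ends of the cluster and Mal-A6 were thus alike in course, while Mal-A5, next to Mal-A6, had r = -0.34 with Mal-A1 in WT and -0.12 in dnClk. The highest dnClk array of Mal-A8, ZT 32, was also that of Mal-A7 (321.3, with 94.7 on the next array).

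With no filter on brightness, the 4 dim maltases had fitted WT amplitudes of 0.14 (Mal-A2), 0.27 (Mal-A3), 0.17 (Mal-A4) and 0.32 (Mal-A7), with limma adjusted p of 1, 0.81, 0.91 and 0.81.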
